A study of Mus musculus with 38 samples.

Results

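The 43 genes described here copy DNA and divide cells, and they were taken by symbol from a table of 13260 mouse genes measured by RNA sequencing in 38 libraries. All 43 symbols were present in the table. The group held 24 replication genes, which act at the G1/S boundary and in S phase, and 19 mitosis genes, which act from G2 to the end of cell division. Both sets are described separately across the 8 groups of libraries.

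Cells that leave quiescence activate the retinoblastoma and E2F pathway, which switches on genes for loading the MCM helicase at origins, for making deoxynucleotides and for the polymerases and clamp of the replication fork. Genes of mitosis peak later, in G2 and M, when the DREAM repressor complex has left their promoters and the B-MYB and FOXM1 activators act there. Myeloma is a cancer of plasma cells, a cell type that normally stops dividing when it matures, and much of the bone-lining stroma of an adult animal is quiescent.

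The libraries came from C57Bl/KaLwRijHsd mice aged 8 to 10 weeks, which received an intravenous injection either of 5TGM1-GFP cells (a transplantable murine myeloma line, labelled with green fluorescent protein) or of PBS vehicle. The animals were culled on day 23, with no drug given to any of these groups. Each library was made from 100 sorted cells. The bone lining of healthy and myeloma-bearing mice yielded 3 niche cell types, all gated as CD45- and Ter119-. Of these, endothelial cells were CD31+, osteoprogenitors were CD31-, ALCAM+ and Sca1-, and stromal progenitors were CD31-, Sca1+ and ALCAM-. Myeloma cells of the myeloma-bearing mice were gated as GFP+ and came from both the bone lining and the central marrow. Healthy endothelial cells and healthy stromal progenitors had 5 libraries each (replicates C, L, M, N and O), and the same cells from myeloma-bearing mice also had 5 each (replicates D, E, G, I and J). Osteoprogenitors had 4 healthy libraries (L, M, N and O) and 4 from myeloma-bearing mice (D, G, I and J), and myeloma cells had 5 libraries from each site (D, E, G, I and J). The 28 libraries of endothelial cells, stromal progenitors and osteoprogenitors are called niche libraries here. Replicates within a group are taken to come from different mice, although the labels do not say so. Nor do they say whether the same letter marks the same mouse in different cell types. The tumour cells were 1 line, so the replicate mice do not sample different myelomas.

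Between 9735031 and 34883291 reads per library lay on the genes of the table. Sorted identities were checked with marker genes, in RPKM (reads per kilobase of gene, scaled to a library size). Relative to the average library, this size was 0.627 to 1.60 times the reads on genes. It is therefore not sequencing depth alone, and levels in RPKM carry this factor. Cdh5, an endothelial cadherin, was between 135 and 392 RPKM in endothelial libraries and at most 2.39 RPKM in all others. Bglap, the osteoblast product osteocalcin, reached 6211 to 54769 RPKM in osteoprogenitors, and at most 197 RPKM in other cells. Pdgfra, a stromal receptor, was 34.2 to 98.1 RPKM in stromal progenitors and 13.3 to 41.1 RPKM in osteoprogenitors, so it set both apart from endothelial cells (at most 6.01 RPKM) and myeloma cells (at most 0.0316 RPKM) but not from each other. Irf4, a plasma cell transcription factor, was 36.9 to 122 RPKM in myeloma cells, at most 0.156 RPKM in the 14 niche libraries of myeloma-bearing mice, and at most 0.507 RPKM in healthy niche libraries other than stromal C and O (4.32 and 6.25 RPKM). Some other markers separated the cell types less well. Lepr, a stromal marker, had a median of 31.5 RPKM in healthy endothelial cells and 21.7 RPKM in healthy stromal progenitors. Prdm1, a plasma cell marker, reached 18.2 RPKM in healthy endothelial cells and fell to 11.7 RPKM in central marrow myeloma cells. Ibsp, an osteoblast marker, was 699 to 2623 RPKM in stromal progenitors and 2259.5 to 7200.3 RPKM in osteoprogenitors. A pair of stromal libraries, healthy L and myeloma-bearing E, stood apart in summed granulocyte markers, with 7358 and 8273 RPKM against 0 to 180 RPKM in the other libraries, although the CD45- gate would remove granulocytes, and without them the numbers of replication and mitosis genes called in every stromal comparison stayed as given. Exons of 13 of the 43 genes overlap exons of another gene in the GENCODE annotation (Mcm7, Rfc2, Rfc4, Rfc5, Pole, Gins2, Cdc45, Ccne2, Top2a, Ccna2, Ube2c, Plk1 and Cdc20). The authors used UCSC transcripts, whose overlaps may differ. The default counting leaves out reads on exons of more than 1 gene, so values of such genes may be understated.

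Promoters are shown because genes of both sets are regulated in phases through them, and their sequence was not used to choose the genes. The sequences below, from RefSeq for GRCm38.p6, run 5′ to 3′ on the strand of the gene from 220 bases before its start to 30 bases from it, for 2 replication genes and 3 mitosis genes whose levels are described below. Capitals mark matches, on either strand, to an E2F core (spelled TTCCCGC in its first form, TTCGCGC in the second, TTGCCGC in the third and TTGGCGC in the last), to CCAAT, the box bound by NF-Y, or to the cell cycle genes homology region, CHR (TTTGAA or TTCGAA). Overlapping matches run together in the capitals. Mcm6 lies at chr1:128359676-128359925 on the minus strand, Mcm5 at chr8:75109289-75109538 on the plus strand, Ccnb2 at chr9:70421525-70421774 on the minus strand, Cdk1 at chr10:69352883-69353132 on the minus strand and Ube2c at chr2:164769709-164769958 on the plus strand.
Mcm6: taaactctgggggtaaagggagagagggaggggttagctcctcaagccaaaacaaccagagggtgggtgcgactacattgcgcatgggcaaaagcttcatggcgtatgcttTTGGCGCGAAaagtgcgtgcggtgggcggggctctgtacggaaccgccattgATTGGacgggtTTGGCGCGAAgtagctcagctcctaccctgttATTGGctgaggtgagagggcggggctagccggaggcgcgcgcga
Mcm5: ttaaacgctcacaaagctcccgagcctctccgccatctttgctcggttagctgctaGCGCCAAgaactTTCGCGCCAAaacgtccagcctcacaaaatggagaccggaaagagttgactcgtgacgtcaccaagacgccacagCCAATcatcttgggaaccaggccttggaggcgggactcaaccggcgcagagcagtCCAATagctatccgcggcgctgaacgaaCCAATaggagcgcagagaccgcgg
Ccnb2: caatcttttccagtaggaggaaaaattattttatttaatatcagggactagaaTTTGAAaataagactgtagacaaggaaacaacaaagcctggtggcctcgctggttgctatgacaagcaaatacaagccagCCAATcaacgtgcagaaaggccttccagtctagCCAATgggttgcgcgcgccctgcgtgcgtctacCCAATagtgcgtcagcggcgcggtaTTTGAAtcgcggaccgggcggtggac
Cdk1: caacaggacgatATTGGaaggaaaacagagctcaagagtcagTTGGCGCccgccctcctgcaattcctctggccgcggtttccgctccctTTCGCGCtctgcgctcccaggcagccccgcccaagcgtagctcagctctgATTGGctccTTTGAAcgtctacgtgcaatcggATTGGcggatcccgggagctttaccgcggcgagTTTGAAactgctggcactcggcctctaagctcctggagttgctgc
Ube2c: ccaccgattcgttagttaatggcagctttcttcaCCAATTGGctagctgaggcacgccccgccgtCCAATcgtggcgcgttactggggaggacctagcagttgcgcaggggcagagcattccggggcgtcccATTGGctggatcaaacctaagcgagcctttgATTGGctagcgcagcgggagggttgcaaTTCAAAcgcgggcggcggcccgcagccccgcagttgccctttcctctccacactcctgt

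The Mcm6 stretch held 4 E2F core matches, 2 CCAAT matches and no CHR match, and the Mcm5 stretch held 3, 3 and 0. The Ccnb2 stretch held 3 CCAAT and 2 CHR matches with no E2F core, the Ube2c stretch held 5 and 1 with no E2F core, and the Cdk1 stretch held matches of every kind (2 E2F, 3 CCAAT and 2 CHR). RefSeq windows reaching from 250 bases before the start to 50 after it were matched for 35 of the 43 genes (19 replication and 16 mitosis genes). Mcm4, Rfc2, Pole, Gins2, Ccne2, Ccna2, Aurkb and Tpx2 had no window. Where a gene had several windows, the first was used. For the replication genes E2f1, Dut, Cdc6 and Mcm7 the window lay wholly inside the annotated gene, so it may miss the promoter of the outermost start. An E2F core was found in 11 of 19 replication windows (57.9%) and 3 of 16 mitosis windows (18.8%), against 9.69% of the 27025 windows of all genes. CHR was found in 4 of 19 replication windows (21.1%), close to the 19.4% of all windows, and in 13 of 16 mitosis windows (81.2%). CCAAT was found in 57.9% of replication windows, 15 of 16 mitosis windows (93.8%) and 37.9% of all windows. CCAAT and CHR occurred together in 81.2% of mitosis, 21.1% of replication and 7.70% of all windows. Between 100 bases before and 50 after the start, CHR lay in 13 of 16 mitosis windows, 2 of 19 replication windows (10.5%) and 8.68% of all windows. An E2F core overlapped a CCAAT match in 3 of the windows. These matches are letters in a window and do not show binding.

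**Figure D1:**
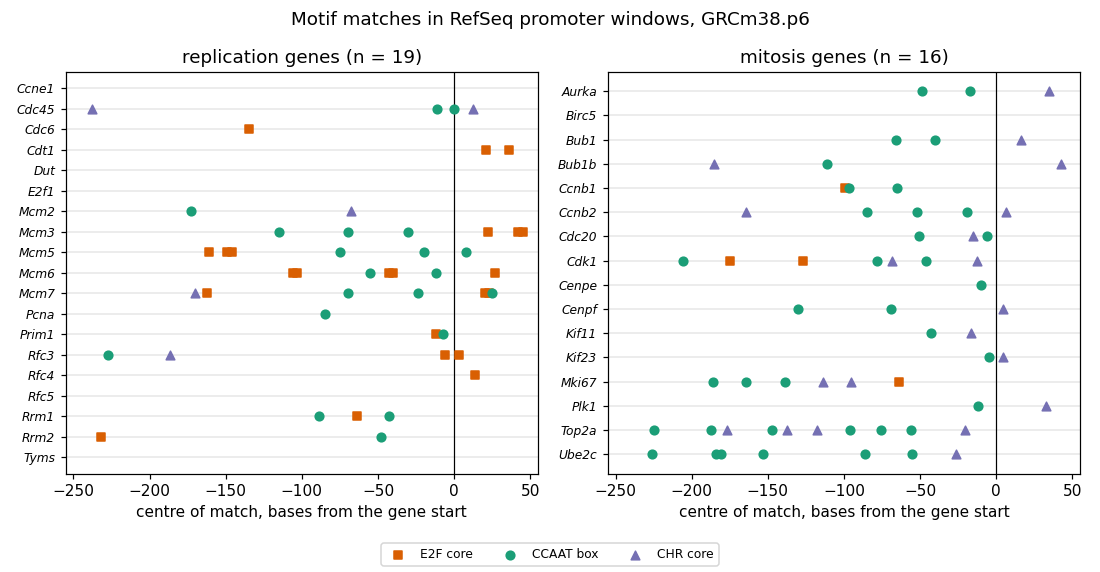
Positions of the 3 motifs in the RefSeq promoter windows of the 35 matched genes, with the distance of a match's centre from the gene start in bases on the x axis and 1 line per gene, in 1 panel for replication and 1 for mitosis genes. CHR matches cluster near the start in 13 of 16 mitosis genes, whereas E2F cores lie mostly in replication genes (11 of 19).

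In myeloma cells, nearly every gene of both sets was expressed in every library. Of the replication genes 23 of 24 exceeded 1 RPKM in all 10 myeloma libraries, the exception being E2f1, and of the mitosis genes 18 of 19 did, the exception being Plk1. Counted over all genes and myeloma libraries, 61.9% of values exceeded 1 RPKM. The median gene stood at 30.3 RPKM for replication and 24.8 RPKM for mitosis in myeloma cells, and at 0.237 and 0.00443 RPKM in niche cells (medians over genes of each gene's median over libraries). In bulk libraries such as these, fewer cells of a type and less RNA per cell cannot be told apart. Across the 10 myeloma libraries the coefficient of variation ran from 20.4% (Ccne1) to 73.9% (Cdc6) with a median of 35.2% for replication genes, and from 20.3% (Top2a) to 54.8% (Plk1) with a median of 36.9% for mitosis genes. The median over 8523 genes with a mean at or above that of the lowest of these genes was 50%.

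The helicase subunits Mcm2 to Mcm7, which unwind DNA at the fork, did not have equal levels in myeloma cells. Mcm6 was highest, with a lowest, median and highest value of 48.4, 65.0 and 122 RPKM. Mcm3 (22.7, 38.9 and 55.3 RPKM), Mcm4 (21.7, 37.6 and 82.6 RPKM), Mcm5 (13.1, 32.2 and 66.9 RPKM) and Mcm2 (19.5, 28.3 and 41.1 RPKM) had ranges that overlapped each other. Mcm7, one of the genes with exons shared with others, was lowest, at 4.72, 7.47 and 15.1 RPKM. In niche cells the same subunits separated further. Mcm6 exceeded 1 RPKM in 27 of 28 niche libraries (median 14.2, highest 203 RPKM), Mcm4 in 19 (median 6.42 RPKM), Mcm3 and Mcm7 in 14 each, Mcm5 in 10 and Mcm2 in 8 (median 0.0307 RPKM).

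Pcna, the sliding clamp, was 70.4 to 175 RPKM in myeloma cells (median 109 RPKM) and, alone among the 43 genes, exceeded 1 RPKM in all 28 niche libraries (10.4 to 165 RPKM, median 37.2 RPKM). Rfc2 to Rfc5 encode the small subunits of the complex that loads this clamp. Rfc4 reached 73.4 to 300.1 RPKM in myeloma cells (median 195) and was 0 to 108 RPKM in niche cells (median 2.89). Rfc3 varied widely on both sides, from 14.4 to 126 RPKM in myeloma and from 0 to 191 RPKM in niche libraries. Rfc2 was as high in niche cells (median 23.3, highest 131 RPKM) as in myeloma cells (median 25.5, highest 42.6 RPKM), and 22 of 28 niche libraries exceeded the lowest myeloma library. Rfc5 had a median of 19.8 RPKM in myeloma and 0.202 RPKM in niche cells.

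The primase subunit Prim1, which starts new strands, was 93.8 to 239 RPKM in myeloma cells with a niche median of 0.273 RPKM. Pole, the catalytic subunit of leading strand polymerase epsilon, was low but distinct, with 3.05 to 6.17 RPKM in myeloma against at most 1.46 RPKM in niche libraries. Among the genes of nucleotide supply, Dut (dUTPase) was high in both compartments, with medians of 123 RPKM in myeloma and 38.5 RPKM in niche cells. Rrm2, the regulatory subunit of ribonucleotide reductase, had medians of 83.0 and 0.304 RPKM, its partner Rrm1 had 23.7 and 2.38 RPKM, and Tyms (thymidylate synthase) had 23.7 and 0.0487 RPKM. Of the genes that load or activate the helicase, Gins2 had a myeloma median of 62.6 RPKM, Cdc45 26.0, Cdt1 21.6 and Cdc6 5.60 RPKM, with niche medians from 0.00578 RPKM (Cdc6) to 0.155 RPKM (Cdt1). The E-type cyclins, which drive entry into S phase, had myeloma medians of 65.2 RPKM (Ccne1) and 10.5 RPKM (Ccne2). The transcription factor E2f1 was the lowest replication gene in myeloma cells (0.547 to 3.01 RPKM).

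Mitosis genes in myeloma cells were led by Ube2c, the ubiquitin-conjugating enzyme of the anaphase-promoting complex, at 156 to 335 RPKM (median 227 RPKM), followed by the cyclin Ccnb2 (27.8 to 125, median 92.7 RPKM) and the mitotic kinase Cdk1 (17.3 to 115, median 85.6 RPKM). Birc5 (survivin) and Aurkb, which act together in the chromosomal passenger complex, had medians of 52.3 and 39.2 RPKM. Ccna2, Ccnb1 and Aurka had medians of 30.9, 26.0 and 26.0 RPKM. Top2a, which untangles DNA, had a median of 26.4 RPKM, the anaphase activator Cdc20 24.8 RPKM and the checkpoint genes Bub1b and Bub1 18.8 and 16.6 RPKM. The spindle motors Kif11 and Kif23 had medians of 19.6 and 11.1 RPKM, the proliferation marker Mki67 15.9 RPKM and the spindle assembly factor Tpx2 13.8 RPKM. Plk1 (0.646 to 12.9, median 6.37 RPKM), Cenpf (1.19 to 8.03, median 5.51 RPKM) and the kinetochore motor Cenpe (1.48 to 6.46, median 3.40 RPKM) were lowest.

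The 10 myeloma libraries lay entirely above the 28 niche libraries for 12 of 19 mitosis genes and for 2 of 24 replication genes, whereas 2.22% of all 13260 genes did so. The mitosis genes were Mki67, Top2a, Ccnb1, Ccna2, Ube2c, Aurkb, Bub1, Bub1b, Birc5, Cdc20, Kif11 and Tpx2, and the replication genes were Pole and Ccne2. Mki67, for example, was 8.13 to 23.7 RPKM in myeloma libraries and reached at most 2.16 RPKM in any niche library. In niche cells 10 replication genes exceeded 1 RPKM in at least 14 of 28 libraries and 4 did so in at most 5, whereas 0 mitosis genes reached 14 libraries and 16 were in the lower class. Counted over genes and libraries, 301 of 672 niche values exceeded 1 RPKM for replication genes (44.8%) and 61 of 532 for mitosis genes (11.5%), with 54.8% for all genes. Zero reads in at least 1 niche library were recorded for 41 of the 43 genes and in a myeloma library for 0 of them. Of all 13260 genes, 8606 to 11125 were detected per niche library and 10106 to 11280 per myeloma library. Genes at 0 in some library were therefore common, and niche libraries outnumber myeloma libraries (28 against 10).

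**Figure D2:**
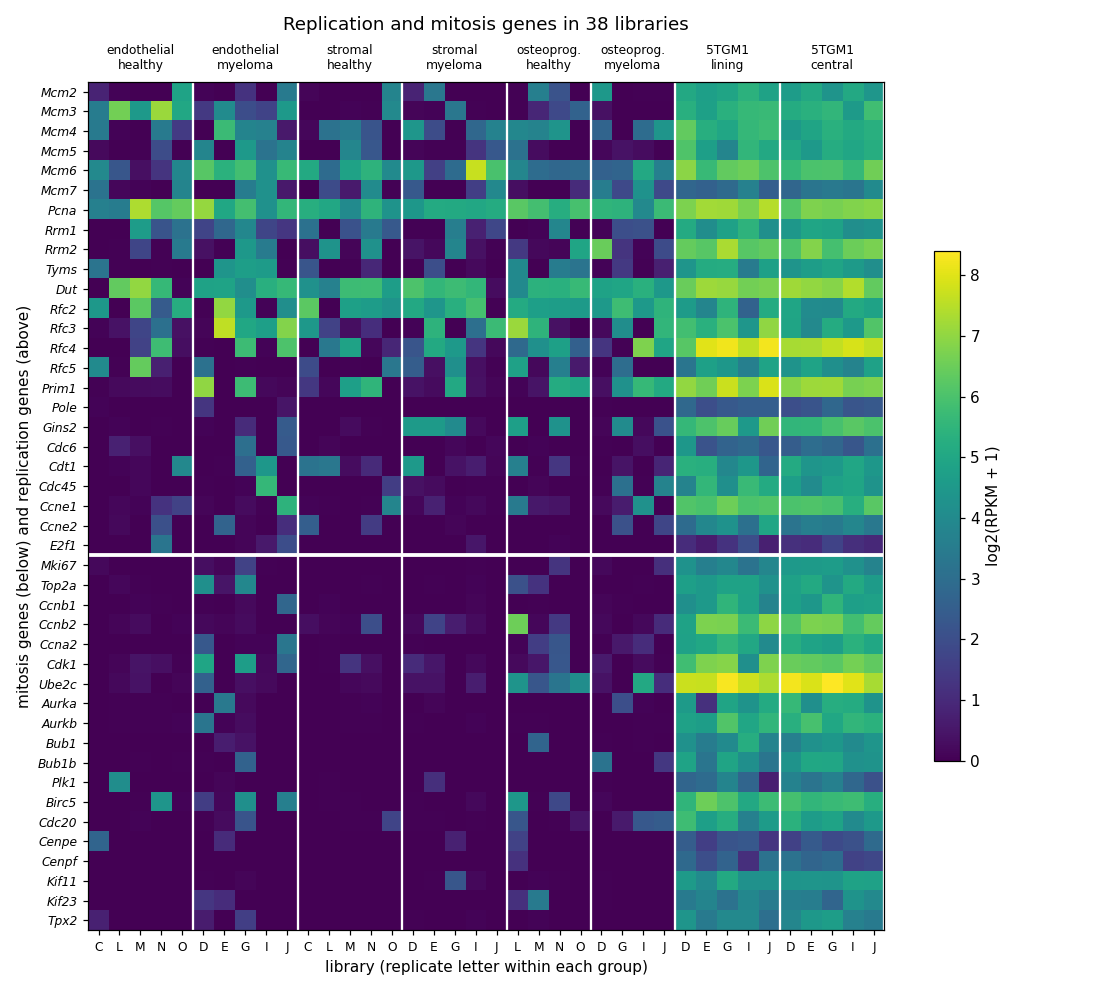
Level of each of the 43 genes, as log2(RPKM + 1) on the colour scale, with 1 row per gene (replication genes, then mitosis genes) and 1 column per library in the 8 groups. The 10 myeloma columns are filled for nearly all genes, and the 28 niche columns are patchy for replication genes and mostly empty for mitosis genes.

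Bone-lining myeloma cells were compared with each niche cell type of myeloma-bearing mice, which asks how the tumour cells differ from their neighbours in these genes. Differences are on the log2(RPKM + 1) scale, which understates changes of low genes, and a gene was called at an adjusted p below 0.1 and a difference beyond 1 in limma with Benjamini-Hochberg adjustment over all genes tested. The same 5 bone-lining myeloma libraries entered all 3 comparisons, which are therefore not independent. Across the genes tested, the median difference was 0.49 against endothelial cells, 0.35 against stromal progenitors and 0.39 against osteoprogenitors, so changes should be read relative to that shift.

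All 19 mitosis genes were called higher in myeloma cells in each of the 3 comparisons, with median differences of 3.57 against endothelial cells, 4.14 against stromal progenitors and 4.12 against osteoprogenitors. Of the replication genes, 18 of 24 tested were called higher against endothelial cells (median difference 2.53), 20 of 23 against stromal progenitors (3.17) and 21 of 23 against osteoprogenitors (3.37), and none was called lower. Of all genes tested, 24.4%, 23.5% and 24.5% were called higher in these comparisons. Genes had to exceed 1 RPKM in at least 4 libraries to be tested, and in comparisons within a niche cell type 12 or 13 replication genes and at most 1 mitosis gene passed, so that the others passed here through the myeloma libraries. With no such filter, so that all 43 genes and the other genes of the table were tested, 16, 19 and 22 replication genes and 19, 19 and 19 mitosis genes were called higher, against 15.3%, 15.9% and 16.3% of all genes. All bone-lining myeloma libraries lay above all libraries of the niche cell type for 17, 18 and 18 mitosis genes and for 11, 16 and 17 replication genes, whereas 12.6%, 12.7% and 15.3% of all genes tested did so. With voom-limma on recovered reads, which tested all genes of the table, 18, 21 and 20 replication genes and 19, 19 and 19 mitosis genes were called higher, against 22.5%, 19.4% and 13.4% of all genes.

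Mki67, which marks cycling cells, was 18.5, 11.2, 13.8, 8.13 and 13.4 RPKM in the bone-lining myeloma libraries D, E, G, I and J. In endothelial cells of myeloma-bearing mice it was 0.234, 0.0827, 2.16, 0.037 and 0 RPKM in the same order. It was at most 0.0438 RPKM in stromal progenitors, and in osteoprogenitors it was 0.127, 0, 0 and 1.21 RPKM (D, G, I and J). The lowest myeloma library was therefore above every niche library in all 3 comparisons. The difference was 3.34 ± 0.52 (SE) against endothelial cells (13.0 ± 3.79 against 0.502 ± 0.930 RPKM, SD, n = 5 and 5, limma adjusted p = 3.06e-04), 3.74 ± 0.46 against stromal progenitors (adjusted p = 2.48e-05) and 3.44 ± 0.49 against osteoprogenitors (adjusted p = 1.40e-04).

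Top2a was 25.6, 22.4, 27.5, 27.3 and 17.9 RPKM in bone-lining myeloma cells. In endothelial cells of myeloma-bearing mice, replicates D and G were at 17.3 and 13.8 RPKM, and E, I and J were at 0.405, 0.0143 and 0 RPKM. The groups did not overlap, but endothelial replicate D came within 1 RPKM of the lowest myeloma library. Stromal progenitors and osteoprogenitors were at most 0.0538 and 0.0241 RPKM. The difference was 2.92 ± 0.89 against endothelial cells (24.1 ± 4.04 against 6.31 ± 8.55 RPKM, SD, limma adjusted p = 0.0220), 4.61 ± 0.47 against stromal progenitors (adjusted p = 4.58e-06) and 4.62 ± 0.44 against osteoprogenitors (adjusted p = 5.58e-06).

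Ccnb1, the cyclin partner of Cdk1, was 17.0, 21.5, 44.4, 26.6 and 12.6 RPKM in bone-lining myeloma cells. Endothelial replicate J was at 5.76 RPKM and the other 4 endothelial libraries of myeloma-bearing mice were at or below 0.159 RPKM, and stromal progenitors and osteoprogenitors were at most 0.0866 RPKM. The difference was 3.94 ± 0.67 against endothelial cells (24.4 ± 12.3 against 1.19 ± 2.55 RPKM, SD, limma adjusted p = 5.78e-04), 4.52 ± 0.51 against stromal progenitors (adjusted p = 1.27e-05) and 4.51 ± 0.50 against osteoprogenitors (adjusted p = 1.91e-05).

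Ube2c gave the largest mitosis difference in all 3 comparisons. It was 208, 204, 316, 213 and 163 RPKM in bone-lining myeloma cells, and 5.12, 0, 0.264, 0.16 and 0 RPKM in endothelial cells, a difference of 7.13 ± 0.59 (limma adjusted p = 1.40e-06). Stromal progenitors were at most 0.603 RPKM (difference 7.46 ± 0.45, adjusted p = 3.22e-08). Osteoprogenitors were 0.318, 0, 32.3 and 1.14 RPKM, so replicate I had a clear signal, and the difference was 6.12 ± 0.86 (adjusted p = 1.30e-04). Exons of Ube2c overlap those of the antisense gene Tnnc2.

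Ccnb2 was 27.8, 105, 103, 52.3 and 125 RPKM in bone-lining myeloma cells and at most 0.199 RPKM in endothelial cells of myeloma-bearing mice, a difference of 6.09 ± 0.56 (limma adjusted p = 3.31e-06). In osteoprogenitors it was 0.128, 0, 0.122 and 1.06 RPKM (difference 5.85 ± 0.55, adjusted p = 5.33e-06). Cdk1 was 56.0, 108, 115, 17.3 and 108 RPKM in bone-lining myeloma cells, with replicate I lowest. Against stromal progenitors, at most 1.05 RPKM, it differed by 5.74 ± 0.62 (adjusted p = 8.24e-06), and against osteoprogenitors, at most 0.517 RPKM, by 5.86 ± 0.61 (adjusted p = 1.11e-05). In endothelial cells of myeloma-bearing mice Cdk1 was 29.6, 0.0194, 24.5, 0.13 and 5.86 RPKM, so that replicates D and G exceeded the lowest myeloma library.

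Aurkb, the kinase of the passenger complex, was 26.7, 24.6, 67.8, 30 and 45.2 RPKM in bone-lining myeloma cells and 8.51, 0.0568, 0.22, 0 and 0 RPKM in endothelial cells, a difference of 4.49 ± 0.71 (limma adjusted p = 3.43e-04). Birc5 was 44.4, 91.8, 64.7, 32.8 and 53.4 RPKM in bone-lining myeloma cells and at most 0.141 RPKM in stromal progenitors, a difference of 5.73 ± 0.50 (adjusted p = 1.07e-06). Cenpe, Cenpf and Tpx2 had no read in any of the 4 osteoprogenitor libraries of myeloma-bearing mice. Set against the RPKM that 3 reads per library would give, their bone-lining myeloma means of 3.10, 4.76 and 13.2 RPKM were at least 108-fold, 237-fold and 258-fold higher, and these limits cover counting error only.

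Among replication genes, Pcna was 106, 149.7, 145, 103 and 175 RPKM in bone-lining myeloma cells and 133, 31.3, 58.1, 18.1 and 45.6 RPKM in endothelial cells. Endothelial replicate D lay within the myeloma range, so the groups overlapped. The difference was 1.52 ± 0.50 (136 ± 30.6 against 57.1 ± 44.7 RPKM, SD, limma adjusted p = 0.0330), and the call was lost without replicate E (1.34, adjusted p = 0.113) or without replicate J (1.42, adjusted p = 0.113), each left out of both groups. Stromal progenitors were 20.6, 33.7, 33.3, 31.5 and 35.0 RPKM (difference 2.10 ± 0.36, adjusted p = 4.80e-04) and osteoprogenitors 44.1, 42.0, 14.6 and 51.3 RPKM (1.92 ± 0.42, adjusted p = 0.00339), neither of which overlapped the myeloma cells.

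Mcm2 was 32.5, 25.9, 29.1, 41.1 and 27.6 RPKM in bone-lining myeloma cells. Endothelial cells were 0.0477, 0.0165, 1.35, 0.0221 and 9.86 RPKM, stromal progenitors 0.781, 9.07, 0, 0.0119 and 0 RPKM, and osteoprogenitors 21.0, 0, 0.0373 and 0.0242 RPKM. A single library thus carried most of the niche signal in each cell type. The difference was 4.03 ± 0.70 (limma adjusted p = 7.12e-04), 4.15 ± 0.68 (adjusted p = 3.51e-04) and 3.85 ± 0.86 (adjusted p = 0.00363), respectively. Ccne1 was 68.2, 62.4, 91.6, 63.2 and 68.5 RPKM in bone-lining myeloma cells. In endothelial cells it was 42.1 RPKM in replicate J and at most 0.188 RPKM in the other 4 libraries (difference 4.98 ± 0.96, adjusted p = 0.00145). Stromal progenitors were at most 0.69 RPKM (5.91 ± 0.47, adjusted p = 5.05e-07), and osteoprogenitors were at 18.0 RPKM in replicate I and at most 0.556 RPKM otherwise (4.88 ± 0.78, adjusted p = 3.49e-04).

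Ccne1 was among the 3 largest replication differences in each comparison, and the other two genes changed from one comparison to the next. Against endothelial cells they were Rfc4 (73.4, 255, 294, 193 and 300.1 RPKM against 0.044, 0, 53.1, 0.0612 and 64.5 RPKM, difference 5.26 ± 1.24, limma adjusted p = 0.00541), Gins2 (47.4, 64.8, 85.6, 21.5 and 94.1 RPKM against 0.0516, 0, 1.06, 0 and 4.33 RPKM, difference 5.12 ± 0.66, adjusted p = 5.87e-05) and Ccne1. Against stromal progenitors they were Prim1 and Rrm2 with Ccne1. Prim1 was 131, 93.8, 208, 105 and 239 RPKM in bone-lining myeloma cells and 32.8 RPKM in stromal replicate G, with at most 0.334 RPKM in the other 4 (difference 5.95 ± 0.87, adjusted p = 1.33e-04). Rrm2 was 84.0, 73.9, 158, 73 and 82.1 RPKM against 13.1 RPKM in stromal replicate G and at most 0.369 RPKM in the other 4 (5.53 ± 0.72, adjusted p = 4.51e-05). Against osteoprogenitors they were Mcm3 and Mcm5 with Ccne1. Mcm3 was 38.5, 26.3, 39.1, 48.2 and 50.5 RPKM against 0.308 RPKM or less (5.25 ± 0.45, adjusted p = 2.46e-06), and Mcm5 was 66.9, 25.6, 13.1, 45.4 and 32.5 RPKM against 0.318 RPKM or less (4.83 ± 0.54, adjusted p = 2.11e-05).

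Some replication genes were not called against a niche cell type. Rfc2 was called in none of the comparisons (difference 1.16, adjusted p = 0.502 against endothelial cells; 0.18, adjusted p = 0.910 against stromal progenitors; −0.74, adjusted p = 0.376 against osteoprogenitors, all by limma), and neither was Mcm7 (1.23, 1.34 and 0.01, adjusted p = 0.306, 0.191 and 0.990). Mcm6 was not called against endothelial cells (0.85, adjusted p = 0.180) or stromal progenitors (1.77, adjusted p = 0.156). Tyms (1.84, adjusted p = 0.183), Rfc3 (0.86, adjusted p = 0.600) and E2f1 (0.60, adjusted p = 0.353) were not called against endothelial cells, and E2f1 did not pass the filter in the other comparisons. Leaving out 1 replicate from both groups changed the call of some further genes. Against endothelial cells Mcm5 was lost without D, E, I or J (adjusted p from 0.139 to 0.187), Cdc6 without D, E or I (0.169 to 0.298), Mcm4 without D or J (0.148 and 0.149) and Cdt1 without D or E (0.128 and 0.130). Against stromal progenitors Dut was lost without E, G or I (0.117 to 0.151), Rfc3 without D or G (0.198 and 0.217) and Gins2 without J (0.101), while Mcm6 was gained without I (0.0417) and Mcm7 without J (0.0429). Against osteoprogenitors Rfc3 was lost without D (0.126).

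**Figure D3:**
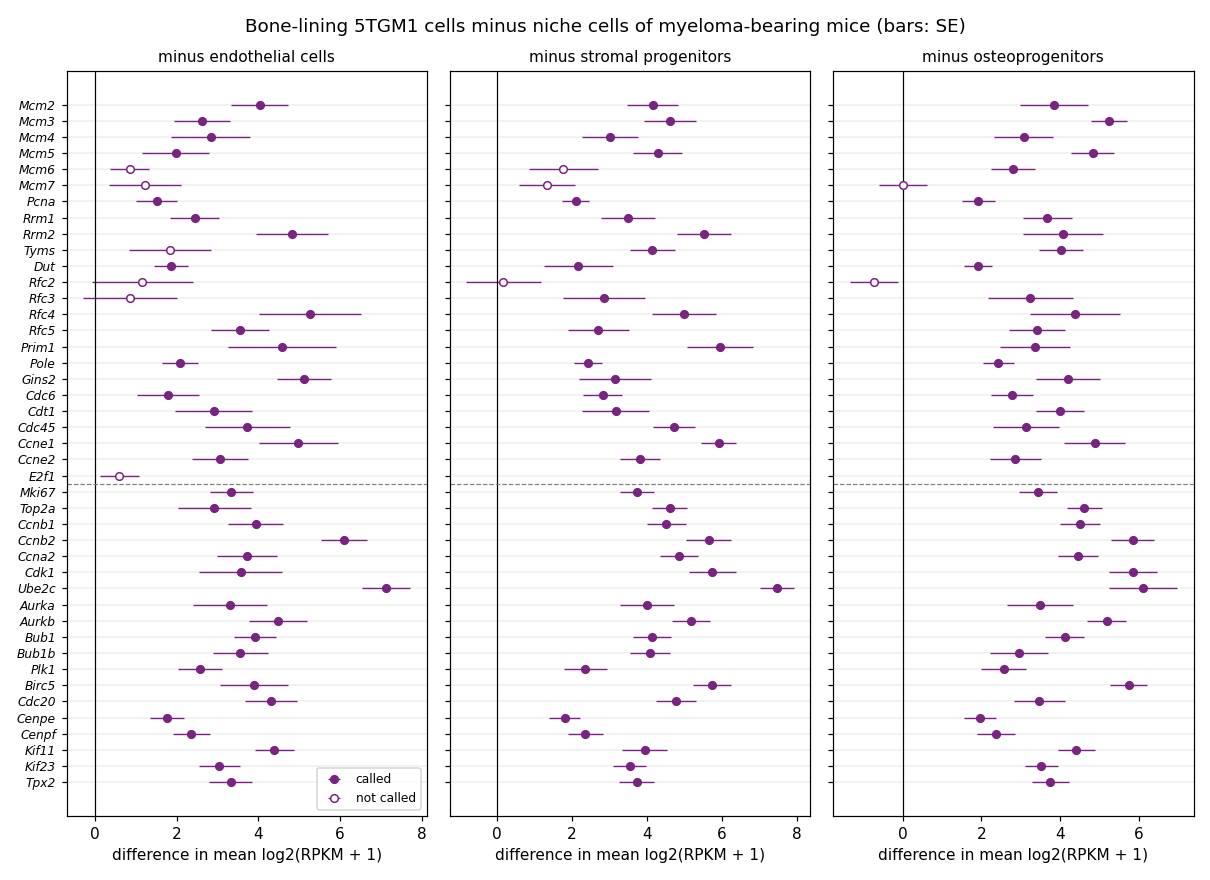
Difference in mean log2(RPKM + 1) between bone-lining myeloma cells and each of the 3 niche cell types of myeloma-bearing mice, with 1 panel per niche cell type, 1 point per gene (filled where called), bars for the SE and a dashed line between the replication genes above and the mitosis genes below. All 19 mitosis genes lie to the right of 1 in every comparison, and the replication gene nearest to 0 is E2f1 against endothelial cells, Rfc2 against stromal progenitors and Mcm7 against osteoprogenitors.

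Other genes of the same processes were described by count. Of 38 further replication genes tested against endothelial cells, 27 were higher in bone-lining myeloma cells and 1 was lower, of 38 against stromal progenitors 30 were higher and 0 lower, and of 38 against osteoprogenitors 33 were higher and 0 lower. Further mitosis genes were higher in 43 of 51, 50 of 52 and 47 of 51 cases, with 0 lower. Of all genes tested, 24.4%, 23.5% and 24.5% were called higher and 17.1%, 18.8% and 18.4% lower. Many of these further genes also passed the filter through the myeloma libraries. With no filter, 26, 27 and 31 of 40 further replication genes and 37, 51 and 49 of 55 further mitosis genes were called higher, against 15.3%, 15.9% and 16.3% of all genes. Gmnn (geminin, the inhibitor of Cdt1) was 245 ± 36.9 RPKM in bone-lining myeloma cells and 0.196 ± 0.210 RPKM in stromal progenitors (SD, difference 7.69 ± 0.43, limma adjusted p = 1.83e-08) and differed by 7.07 ± 0.51 from osteoprogenitors (adjusted p = 6.23e-07). The histone chaperone gene Asf1b differed by 5.95 ± 0.57 and 5.61 ± 0.64 in these comparisons. Pole3 and Pold2, polymerase subunits, were higher than in endothelial cells by 5.97 ± 0.56 and 4.71 ± 0.70, and Timeless, a fork protection gene, was lower by a difference of −1.48 ± 0.56 (5.05 ± 3.34 against 14.6 ± 5.22 RPKM, SD, adjusted p = 0.0564). Cdca3 (6.12 ± 0.51 and 6.16 ± 0.51 against endothelial cells and stromal progenitors), Spc24, a kinetochore gene (6.27 ± 0.55 and 6.33 ± 0.53 against stromal progenitors and osteoprogenitors), and the centromere genes Cenpm (4.79 ± 0.60 against endothelial cells) and Cenph (5.78 ± 0.46 against osteoprogenitors) led the further mitosis genes.

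Genes that gate entry into the cycle were called in both directions. Of 13 G1 control genes tested in each comparison, 3, 7 and 7 were higher and 2, 2 and 3 lower in bone-lining myeloma cells than in endothelial cells, stromal progenitors and osteoprogenitors. The shares of all genes were 24.4%, 23.5% and 24.5% higher and 17.1%, 18.8% and 18.4% lower, so the counts against endothelial cells and the lower counts throughout were near the background. Some of these genes were tested through the myeloma libraries, where they were high. With no filter, 3, 6 and 7 of all 14 were higher and 2, 0 and 3 lower, against 15.3%, 15.9% and 16.3% of all genes higher and 11.8%, 14% and 16.3% lower. Rbl1, Rbl2 and E2f5 were the calls lost, all against stromal progenitors (adjusted p = 0.125, 0.110 and 0.173). E2f3 was higher than in endothelial cells (12.7 ± 7.82 against 0.447 ± 0.831 RPKM, SD, difference 3.17 ± 0.58, limma adjusted p = 0.00107) and stromal progenitors (2.94 ± 0.69, adjusted p = 0.00440). E2f2 was 5.17 ± 1.25 RPKM in bone-lining myeloma cells, was higher than in endothelial cells (1.96 ± 0.65, adjusted p = 0.0325), and was at 0 RPKM in every stromal progenitor and osteoprogenitor library of myeloma-bearing mice. Ccnd2 (cyclin D2) was higher than in osteoprogenitors (88.8 ± 18.3 against 11.8 ± 10.6 RPKM, difference 3.22 ± 0.59, adjusted p = 9.27e-04), whereas Ccnd1 (cyclin D1) was lower than in endothelial cells (0.301 ± 0.493 against 24.2 ± 26.0 RPKM, −3.83 ± 0.66, adjusted p = 6.86e-04) and osteoprogenitors (−2.15 ± 0.48, adjusted p = 0.00400). Rb1, the retinoblastoma gene, was lower than in endothelial cells (−3.43 ± 0.58, adjusted p = 5.41e-04), its relative Rbl2 was lower than in stromal progenitors (−2.01 ± 0.79, adjusted p = 0.0619) and osteoprogenitors (−2.18 ± 0.56, adjusted p = 0.00919), and E2f5 was lower than in stromal progenitors (−2.50 ± 1.12, adjusted p = 0.0997).

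Among cyclin-dependent kinase inhibitors and quiescence genes, 2 of 12 were higher and 4 lower against endothelial cells, 2 and 6 of 13 against stromal progenitors, and 1 and 8 of 13 against osteoprogenitors. With the same shares of all genes (24.4%, 23.5% and 24.5% higher, 17.1%, 18.8% and 18.4% lower), the higher counts lay below the background in each comparison. Some of these genes passed the filter only through the group where they were high, such as Cdkn1c, Gas1 and Btg1 through niche libraries. The counts of this list are therefore given as a description. Cdkn1c (p57) was 0.0361 ± 0.0276 RPKM in bone-lining myeloma cells and 80.7 ± 55.2 RPKM in endothelial cells (SD, difference −5.43 ± 1.01, limma adjusted p = 0.00112), and it was lower than in stromal progenitors by −5.24 ± 0.51 (adjusted p = 3.13e-06). Gas1, a growth arrest gene, was 397 ± 89.6 RPKM in stromal progenitors and 0.114 ± 0.127 RPKM in myeloma cells (−8.46 ± 0.42, adjusted p = 7.57e-09), and differed by −6.32 ± 0.55 from osteoprogenitors. Btg1, an antiproliferative gene, was lower than in endothelial cells (−5.31 ± 0.49, adjusted p = 3.50e-06) and osteoprogenitors (−5.10 ± 0.43, adjusted p = 2.21e-06). Cdkn2b (p15), in contrast, was 9.24 ± 7.84 RPKM in bone-lining myeloma cells and at 0 RPKM in every endothelial and osteoprogenitor library of myeloma-bearing mice. It was therefore tested there through the myeloma libraries alone. Cdkn2c (p18) was 67.1 ± 35.1 RPKM in myeloma and 15.1 ± 7.96 RPKM in endothelial cells (2.24 ± 0.71, adjusted p = 0.0268), and Ccng2 was higher than in stromal progenitors (2.85 ± 0.85, adjusted p = 0.0181).

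Bone-lining and central marrow myeloma cells were compared to ask whether the site changed these genes. No replication gene and no mitosis gene was called by limma, with 0.203% of all 8857 genes tested called, and at an unadjusted p below 0.05 the counts were also 0 and 0, where 5.98% of all genes had such a p. Differences (bone lining minus central marrow) ran from −0.44 (Mcm7) to 0.79 (Rfc3) for replication genes, with a median of 0.12 and SE between 0.23 and 0.47, and 17 were above 0 and 7 below. For mitosis genes they ran from −0.88 (Aurka) to 0.14 (Birc5), with a median of −0.20 and SE between 0.24 and 0.60, and 2 were above 0 and 16 below, with Bub1 at 0.00 to 2 decimals. The median over all genes was −0.01. Mki67 was 18.5, 11.2, 13.8, 8.13 and 13.4 RPKM in the bone lining and 21.9, 22.6, 23.7, 18.0 and 12.5 RPKM in the central marrow, with overlapping ranges (difference −0.58 ± 0.32, adjusted p = 0.861). Aurka was 21.3 ± 12.6 and 31.1 ± 12.9 RPKM (SD, n = 5 and 5, −0.88 ± 0.60, adjusted p = 0.937). Mcm4 was 50.1 ± 20.1 and 32.2 ± 7.10 RPKM (0.57 ± 0.30, adjusted p = 0.853), and Pcna was 136 ± 30.6 and 102 ± 18.5 RPKM (0.41 ± 0.23, adjusted p = 0.857). A difference beyond 1 was not seen for any of the 43 genes, and the SE given limit how small a difference these libraries could resolve. None of the 4 further lists had a gene called here.

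In niche cells the number of genes above 1 RPKM varied from library to library. Of 24 replication genes, healthy endothelial libraries had 8, 4, 9, 13 and 11 above 1 RPKM (C, L, M, N and O) and those of myeloma-bearing mice 9, 10, 18, 13 and 15 (D, E, G, I and J). Stromal progenitors had 11, 9, 9, 13 and 10 in healthy and 10, 10, 11, 9 and 7 in myeloma-bearing mice, and osteoprogenitors had 14, 8, 14 and 10 in healthy and 9, 14, 10 and 13 in myeloma-bearing mice. All of these ranges overlapped. Bone-lining myeloma libraries had 23 or 24, and so did central marrow ones. Of the 19 mitosis genes, healthy endothelial libraries had 1, 1, 0, 1 and 0 above 1 RPKM, and those of myeloma-bearing mice had 7, 3, 7, 0 and 4. Stromal progenitors had 0, 0, 1, 1 and 1 in healthy and 1, 2, 1, 0 and 0 in myeloma-bearing mice. Osteoprogenitors had 8, 5, 6 and 1 in healthy and 1, 1, 3 and 5 in myeloma-bearing mice. The largest niche counts were therefore in healthy osteoprogenitor replicate L and in endothelial replicates D and G of myeloma-bearing mice. Counts above 1 RPKM are given as a description, without a test.

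**Figure D4:**
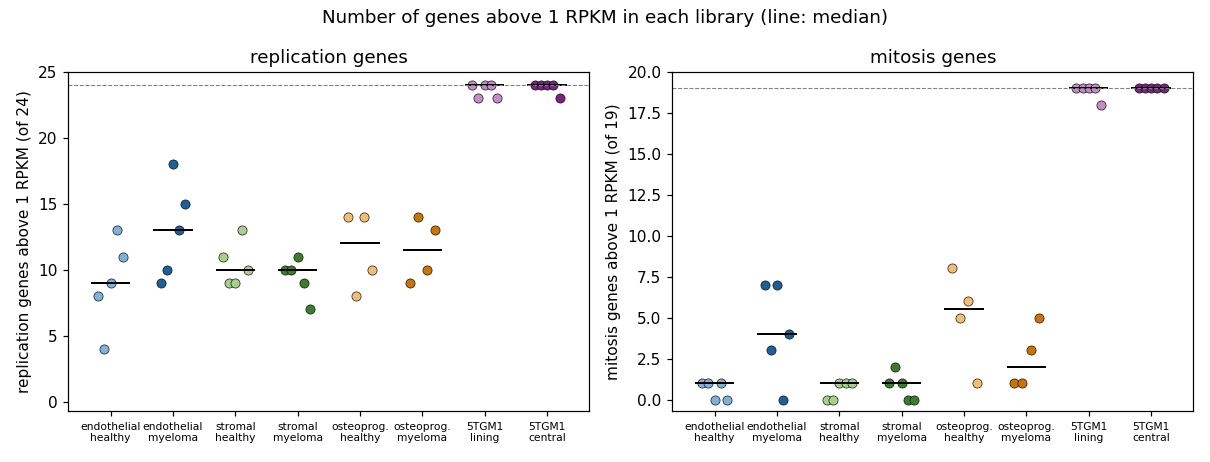
Number of replication genes (of 24) and mitosis genes (of 19) above 1 RPKM in each library, with 1 point per library by group and a line at the group median. Myeloma libraries hold 23 or 24 replication and 18 or 19 mitosis genes, and niche libraries between 4 and 18 replication and between 0 and 8 mitosis genes.

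Healthy niche cell types were compared with each other to ask how far they differ before tumour. Between endothelial cells and stromal progenitors, 1 of 13 replication genes tested was called by limma (17.3% of all genes were) and no mitosis gene passed the filter. The gene was Mcm3, at 10.4, 97.3, 21.5, 139 and 31.5 RPKM in endothelial cells and 0, 0, 0.0483, 0.0317 and 14.3 RPKM in stromal progenitors. It passed the filter through the endothelial libraries, where it was high. Only stromal replicate O overlapped the endothelial range (59.8 ± 55.5 against 2.87 ± 6.37 RPKM, SD, n = 5 and 5, difference 4.54 ± 1.05, adjusted p = 0.00903). With all 38 libraries in the fit Mcm6 was also called, lower in endothelial cells (−2.12, adjusted p = 0.0446), where 28.1% of all genes were called.

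Between endothelial cells and osteoprogenitors, 1 of 12 replication genes and the 1 mitosis gene tested were called (16.5% of all genes were). Osteoprogenitors again had less Mcm3 than endothelial cells, at 0.0271, 0.878, 2.61 and 5.26 RPKM (endothelial cells minus osteoprogenitors 3.99 ± 1.00, limma adjusted p = 0.0177), a call lost without replicate L (3.23, adjusted p = 0.124) or without replicate N (3.71, adjusted p = 0.134). Ube2c was 19.3, 3.74, 8.69 and 16.3 RPKM in healthy osteoprogenitors and 0, 0.122, 0.321, 0 and 0.0885 RPKM in endothelial cells, with no overlap (difference −3.36 ± 0.68, endothelial cells minus osteoprogenitors, adjusted p = 0.00514). With voom-limma on recovered reads, which tested all genes and called 21.7% of them, Gins2 (−4.51, adjusted p = 0.0940), Ccna2 (−4.32, adjusted p = 0.0425) and Kif23 (−4.37, adjusted p = 0.0311) were also called lower in endothelial cells.

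Between osteoprogenitors and stromal progenitors, Ube2c was the 1 mitosis gene tested and was called (3.58% of all genes were). It passed the filter through the osteoprogenitor libraries, where it is high, so the count of 1 of 1 is not a result about mitosis genes. It was at most 0.148 RPKM in the 5 healthy stromal libraries (12 ± 7.08 against 0.0495 ± 0.0698 RPKM, SD, n = 4 and 5, difference 3.43 ± 0.70, limma adjusted p = 0.0165). Leaving out any 1 of the 4 osteoprogenitor libraries removed Ube2c from the test, since it exceeded 1 RPKM in those 4 libraries only, and the same held against endothelial cells. With no filter, 1 of 19 mitosis genes, Ube2c, was called both against stromal progenitors (3.43, adjusted p = 0.0301, with 1.61% of all genes called) and against endothelial cells (adjusted p = 0.0111, with 9.43% of all genes called). Of 13 replication genes, 0 were called by limma. Tyms was 14.7, 0, 10.5 and 8.43 RPKM in osteoprogenitors and at most 3.66 RPKM in stromal progenitors (2.04 ± 0.91, adjusted p = 0.355), and Pcna was 57.5 ± 15.5 and 29.2 ± 11.8 RPKM (1.01 ± 0.50, adjusted p = 0.413). With voom-limma Ccna2 (4.47, adjusted p = 0.0981) and Kif23 (4.68, adjusted p = 0.0666) were also called higher in osteoprogenitors, with 4.87% of all genes called.

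Of the further lists in healthy niche cells, Cks1b, a cofactor of cyclin-dependent kinases, was the 1 further mitosis gene called, lower in endothelial cells than in stromal progenitors (6.09 ± 10.9 against 90.4 ± 46.5 RPKM, SD, difference −4.72 ± 0.97, limma adjusted p = 0.00421) and than in osteoprogenitors (−4.54 ± 1.05, adjusted p = 0.0116). It was 1 of 7 further mitosis genes tested in the first of these comparisons and 1 of 9 in the second, where 17.3% and 16.5% of all genes were called, and 0 of 10 were called between osteoprogenitors and stromal progenitors. Of 19 further replication genes tested, 3 were lower in endothelial cells than in stromal progenitors, led by Pole4 (−3.90 ± 1.09, adjusted p = 0.0277), where 10.6% of all genes were called lower. Against osteoprogenitors 1 of 18 was lower and 1 higher (9.81% and 6.67% of all genes were), the latter being Pola2 (10.2 ± 12.5 against 0.0210 ± 0.0271 RPKM). Pola2 was tested through its endothelial libraries, where it was high (2.63 ± 0.88, adjusted p = 0.0714), and was not called with no filter (adjusted p = 0.150). Between osteoprogenitors and stromal progenitors 1 of 20 was called. Pold2, that gene, was at 0 RPKM in every healthy osteoprogenitor library and 18.2 ± 15.4 RPKM in stromal progenitors (adjusted p = 0.0829). It was tested through its stromal libraries alone and was not called with no filter (adjusted p = 0.220). With no filter, 1, 1 and 0 of 40 further replication genes were called in the 3 comparisons, in the order above, where 9%, 9.43% and 1.61% of all genes were called. Of 10 G1 control genes tested 2 were called, a share near the 17.3% of all genes, with Rb1 higher (4.21 ± 1.10, adjusted p = 0.0194) and Rbl2 lower (−2.93 ± 0.75, adjusted p = 0.0166) in endothelial cells than in stromal progenitors. Rb1 passed the filter wholly or mostly through endothelial libraries and Rbl2 through stromal ones, where each was high. None of 8 was called in either comparison with osteoprogenitors. Of 12 inhibitor and quiescence genes, 2, 1 and 1 were called in the 3 comparisons (17.3%, 16.5% and 3.58% of all genes were). Gas1 was 277 ± 64.7 RPKM in stromal progenitors, 95.3 ± 23.4 RPKM in osteoprogenitors and 0.213 ± 0.293 RPKM in endothelial cells, and was called in all 3 comparisons. Cdkn1a (p21) was also lower in endothelial cells than in stromal progenitors (−2.16 ± 0.70, adjusted p = 0.0559).

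**Figure D5:**
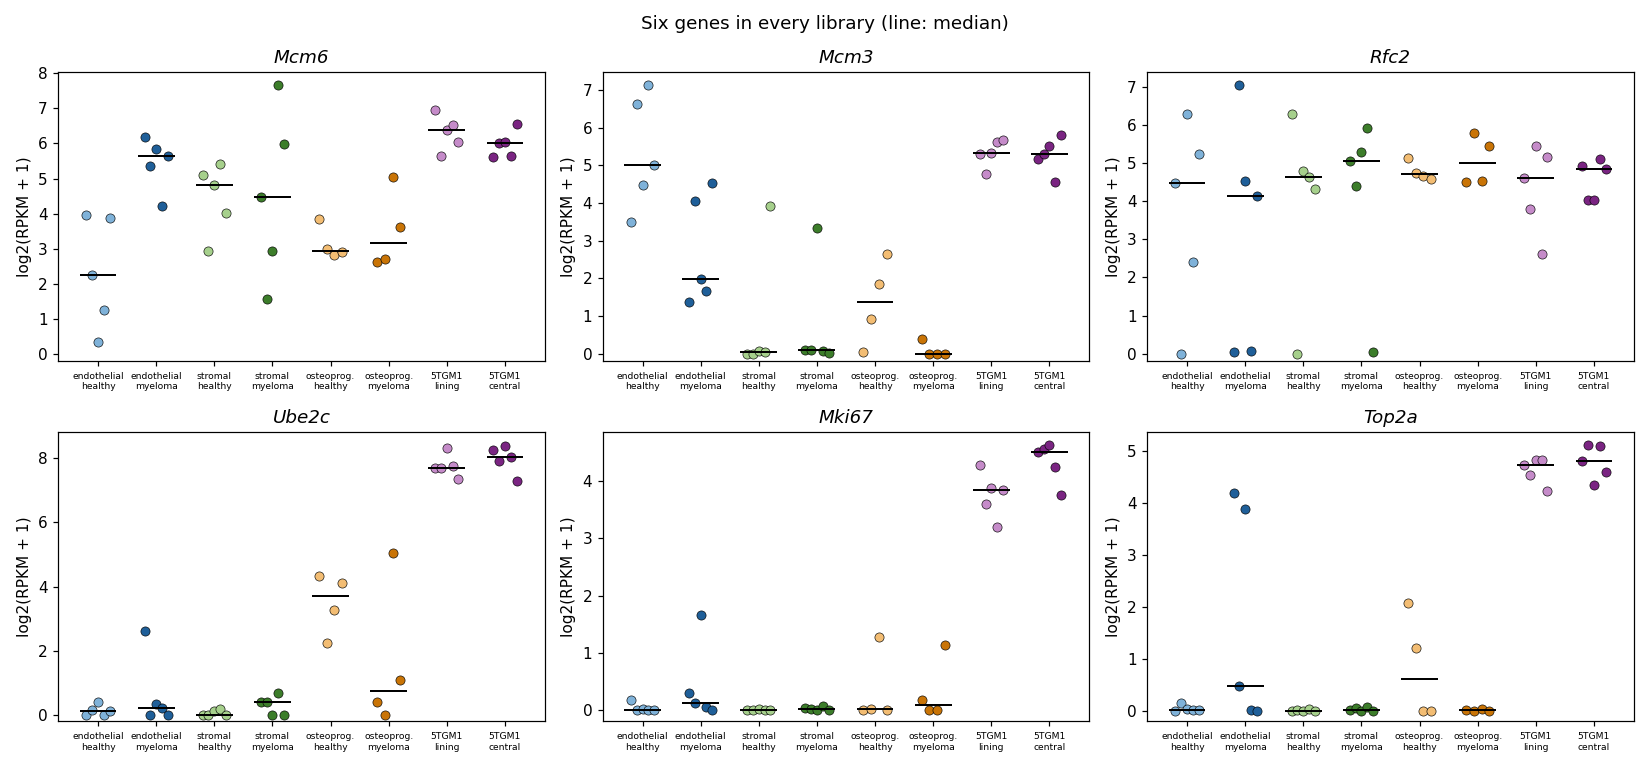
Level of Mcm6, Mcm3, Rfc2, Ube2c, Mki67 and Top2a in every library, as log2(RPKM + 1) on the y axis, with 1 point per library in the 8 groups on the x axis and a line at the group median. All 10 myeloma points lie above all 28 niche points for Ube2c, Mki67 and Top2a, Rfc2 overlaps throughout, and Mcm3 is high in healthy endothelial cells (10.4 to 139 RPKM).

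Endothelial cells of myeloma-bearing and healthy mice were compared to ask whether tumour altered these genes in the vessels. By limma 0 of 13 replication genes tested and 0 of 1 mitosis gene were called, as were 0% of all 7880 genes tested, and 4 replication genes and 0 mitosis genes had an unadjusted p below 0.05, as did 5.25% of all genes. Mcm6 was 14.6, 3.73, 0.28, 1.38 and 13.7 RPKM in healthy mice (C, L, M, N and O) and 72.4, 39.9, 56.2, 17.8 and 48.9 RPKM in myeloma-bearing mice (D, E, G, I and J), so that the groups did not overlap. The difference was 3.11 ± 1.02 (6.75 ± 6.90 to 47.1 ± 20.2 RPKM, SD, n = 5 and 5) with an adjusted p = 0.821. With all 38 libraries in the fit, which lets every group contribute to the estimate of the spread, 3.27% of all genes were called. Mcm6 (3.11, adjusted p = 0.0355) and Mcm5 (2.62, adjusted p = 0.0764) were then called higher and Mcm3 (−2.63, adjusted p = 0.0822) lower. With voom-limma on recovered reads, 1.89% of all genes were called, including Mcm6 (3.89, adjusted p = 0.0935), and 6 of 24 replication and 4 of 19 mitosis genes had an unadjusted p below 0.05, as did 12.9% of all genes. Calls for these helicase genes therefore depended on the fit used.

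Rfc3 was at most 7.55 RPKM in healthy endothelial cells and 0.0882, 191, 31.1, 25.5 and 113 RPKM in those of myeloma-bearing mice, where replicate D lay within the healthy range (3.71 ± 1.35, limma adjusted p = 0.872). Birc5 was 19.9 RPKM in healthy replicate N and at most 0.0482 RPKM in the other healthy libraries, against 1.9, 0.0976, 17.0, 0.0218 and 11.3 RPKM (0.99 ± 1.08, adjusted p = 0.979). Without the filter, 19 of 24 replication genes and 17 of 19 mitosis genes had a positive difference, with medians of 0.60 and 0.49 against 0.01 for all genes. Top2a, below the filter, exceeded 1 RPKM in endothelial replicates D and G of myeloma-bearing mice and in 0 of 5 healthy libraries. The 9 plasma cell markers summed to 155 to 311 RPKM in these 5 libraries, 80.4 to 452 RPKM in healthy endothelial libraries and 4156 to 10921 RPKM in myeloma cells, with Xbp1 the main part of the endothelial sums. Irf4 was at most 0.137 RPKM and Ptprc (CD45), at 40.0 to 93.5 RPKM in myeloma cells, was at most 0.0975 RPKM in these libraries. Sdc1, which stromal progenitors and osteoprogenitors also expressed, was 8.92 and 20.2 RPKM in replicates I and J and at most 0.0280 RPKM in healthy endothelial libraries. Summed osteoblast markers were 363 and 654 RPKM in the same replicates, against 17.4 to 120 RPKM in healthy endothelial libraries. The part of Sdc1-expressing or osteoblast-marked material in the result was not tested. In simulated data for this comparison 15.6% of 173 tested genes changed by 8-fold were recovered, so large differences could be missed. More genes passed the filter in the simulated than in the real data (9063 against 7880), so the simulated libraries were less sparse.

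In stromal progenitors, 0 of 13 replication genes were called between myeloma-bearing and healthy mice by limma, no mitosis gene passed the filter, and 0% of all 8747 genes were called. With all 38 libraries in the fit 0.354% and with voom-limma 0.618% of all genes were called, none of them a replication or mitosis gene described here. At an unadjusted p below 0.05 the counts were 0 and 0 (437 of all 8747 genes), and with voom-limma 0 members were called and 1 of each set had such a p, as did 8.83% of all genes. Rfc3 was 21.4, 2.12, 0.229, 1.13 and 0 RPKM in healthy mice and 0.0602, 42.0, 0, 7.46 and 51.3 RPKM in myeloma-bearing mice, with overlapping ranges (1.36 ± 1.27, adjusted p = 0.981). Rrm1 was 7.78, 0, 3.36, 9.8 and 4.09 RPKM in healthy and 0.0366, 0.0386, 11.1, 0.712 and 2.42 RPKM in myeloma-bearing mice (−0.96 ± 0.94, adjusted p = 0.987).

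In osteoprogenitors, 0 of 12 replication genes and 0 of 1 mitosis gene were called by limma (0.0115% of all 8664 genes were, 0.185% with all 38 libraries in the fit and 0.211% with voom-limma), with 2 and 0 at an unadjusted p below 0.05, as were 4.87% of all genes. With voom-limma 0 members were called, and 4 of 24 and 5 of 19 had such a p, as did 5.2% of all genes. Mcm7 was 0.229, 0, 0 and 1.04 RPKM in healthy mice (L, M, N and O) and 10.7, 2.59, 18.4 and 2.65 RPKM in myeloma-bearing mice (D, G, I and J), without overlap (0.318 ± 0.496 to 8.58 ± 7.56 RPKM, SD, n = 4 and 4, difference 2.55 ± 0.83, adjusted p = 0.981). Tyms was 14.7, 0, 10.5 and 8.43 RPKM in healthy and 0.0518, 1.64, 0.033 and 0.685 RPKM in myeloma-bearing mice (−2.12 ± 0.94, adjusted p = 0.981). Ube2c, 3.74 to 19.3 RPKM in healthy mice, was 0.318, 0, 32.3 and 1.14 RPKM in myeloma-bearing mice, where replicate I was above every healthy library and the other 3 were below (−1.86 ± 1.15, adjusted p = 0.981). No gene of the 4 further lists was called between myeloma-bearing and healthy mice in any of the 3 niche cell types.

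Whether tumour changed the genes differently in different niche cell types was tested with interaction terms over the 28 niche libraries. By limma 0 of 21 replication genes and 0 of 8 mitosis genes tested were called in any of the 3 contrasts, in which 0%, 0% and 0.00854% of 11713 genes were called. At an unadjusted p below 0.05 the replication and mitosis counts were 2 and 1 (endothelial change minus stromal change), 2 and 5 (endothelial minus osteoprogenitor) and 1 and 0 (stromal minus osteoprogenitor), where 5.84%, 5.21% and 3.44% of all genes had such a p. Mcm5 (3.10 ± 1.18, adjusted p = 0.747), Mcm6 (3.04 ± 1.27, adjusted p = 0.765), Cdk1 (2.32 ± 0.99, adjusted p = 0.786) and Top2a (1.65 ± 0.86, adjusted p = 0.871) had the smallest p in the first contrast. Tyms (4.21 ± 1.39, adjusted p = 0.857), Mcm5 (3.27 ± 1.25), Cdk1 (2.86 ± 1.05) and Top2a (2.48 ± 0.92) did so in the second, and Gins2 (3.25 ± 1.45), Ccne2 (−1.73 ± 0.86), Ube2c (2.09 ± 1.03) and Kif23 (1.15 ± 0.68) in the third. A difference in response between the niche cell types was therefore not detected for these genes, and the SE of the differences tested ran from 0.64 to 2.22.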

How the data were processed

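RNA was sequenced as 50 bp single-end reads from SmartSeq2 libraries of 100 sorted cells each. The authors aligned reads to GRCm38/mm10 with STAR (2.4.0), counted them per gene with featureCounts (Subread 1.4.5-p1, without strand) and removed genes that did not exceed 1 CPM in 4 or more samples. The deposited values are RPKM, which the authors computed with edgeR, so low genes rest on few reads. RPKM values were analysed as log2(RPKM + 1) with limma (3.58.1, R 4.3.3, trended empirical Bayes) over the libraries compared, for genes whose RPKM exceeded 1 in 4 or more of these libraries. Calls required a Benjamini-Hochberg adjusted p below 0.1 and a log2 difference beyond 1. Interactions used all 28 niche libraries.

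For one alternative, whole reads were recovered from the multiples of the RPKM of a single read. All 13260 genes gave whole reads (tolerance 0.001 reads, 9263 genes with a library of 1 read), and voom-limma was run on all 38 libraries. Limits set by 3 reads per library cover counting error only. Other alternatives were a pseudocount of 0.1, no filter, an adjusted p below 0.05, median-of-ratios scaling, all 38 libraries in the fit, a replicate block, and leaving out each replicate. Leaving out the granulocyte-marked stromal libraries was chosen after seeing the data.

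The members and gene lists were chosen with earlier results of these data known. Values in every library and full statistics were given for Mki67, Top2a, Ccnb1, Pcna, Mcm2 and Ccne1 in myeloma against niche cells, and otherwise for the 3 replication and 3 mitosis genes with the largest called difference, or where none was called the 2 of each with the smallest p. Of further lists (replication, mitosis, G1 control, cyclin-dependent kinase inhibitors and quiescence) counts and the 2 largest called rises and falls were given. Genes named for a lost or gained call were chosen after their values were seen. The fits were tested on simulated data, where 46.3% of 190 tested genes changed 8-fold were recovered for myeloma against endothelial cells and 52.8% of 178 for myeloma against osteoprogenitors. More genes passed the filter in these simulated than in the real data (9808 against 9207 and 9867 against 9316). Promoter windows came from RefSeq (GRCm38.p6). The p-values measure the spread between libraries, which are taken to come from different mice.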

Additional observations from a re-analysis of the deposited data

Results flagged for a closer look

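Of 64 tests for a single library far from its group (6 genes and the mean level of both sets in 8 groups, on the log2(RPKM + 1) scale), 21 passed the 95% limit. Chance alone passes about 1 in 20 groups of normally spread values. Many of these groups are at or near 0 except for 1 library, so the 21 cannot be set against that rate. All 21 were single genes. In endothelial cells the high libraries were healthy C for Mki67 (0.17), healthy L for Top2a (0.16), healthy O for Mcm2 (4.87), and, in myeloma-bearing mice, G for Mki67 (1.66), J for Ccnb1 (2.76) and J for Ccne1 (5.43). In stromal progenitors they were healthy L for Ccnb1 (0.07), healthy O for Mcm2 (3.79) and for Ccne1 (3.82), and, in myeloma-bearing mice, I for Ccnb1 (0.12), E for Mcm2 (3.33) and E for Ccne1 (0.76), while D was low for Pcna (4.43). In osteoprogenitors they were healthy N for Mki67 (1.28), healthy M for Ccnb1 (0.05) and healthy L for Ccne1 (3.43), and, in myeloma-bearing mice, J for Mki67 (1.14), D for Mcm2 (4.46) and I for Ccne1 (4.25), while I was low for Pcna (3.96). In bone-lining myeloma cells G was high for Ccne1 (6.53). Several of these values, such as 0.05, 0.07, 0.12, 0.16 and 0.17, rest on few reads in a group otherwise at or near 0.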

How the results depend on the processing

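Between myeloma and niche cells, leaving out 1 replicate gave 14 to 18 (endothelial cells), 18 to 20 (stromal progenitors) and 20 to 21 (osteoprogenitors) replication genes called and 18 or 19 mitosis genes in each, and the other settings gave 16 to 18, 18 to 21 and 20 to 22 replication genes. The number of replication genes called in endothelial cells of myeloma-bearing against healthy mice rose from 0 to 3 with all 38 libraries in the fit and to 1 with voom-limma, and over all genes from 0 to 258 and 251. Healthy endothelial cells against stromal progenitors gave 2 in place of 1 with all 38 libraries. Healthy endothelial cells against osteoprogenitors gave 2 replication and 3 mitosis genes with voom-limma, and 0 to 1 of each when 1 replicate was left out. Osteoprogenitors against stromal progenitors gave 3 mitosis genes with voom-limma in place of 1, and 0 to 1 when 1 replicate was left out. For the mitosis gene Ube2c the loss follows from the filter, and the cause of the other shifts was not tested. Over all 13 comparisons, the sign of the difference turned under some setting for 0 of 120 calls and for 75 of 217 tested differences that were not called. Of the values printed, Rfc2 against stromal progenitors was −1.05 to 1.05 when 1 replicate was left out and negative without J alone, and Rfc3 against endothelial cells was −0.35 (without D) to 1.64. Mcm7 against osteoprogenitors was −0.34 (without G) to 0.27, and −0.19 with median-of-ratios scaling, and Birc5 between bone lining and central marrow was −0.07 (without E) to 0.35. Deviations of libraries with the same letter correlated between −0.0488 and 0.145, with 3 of 32 over 0.1, so these values do not show a pairing, and whether a letter marks 1 mouse is not given in the labels. With the replicate block, fitted on libraries whose letter is in both groups, 17 and 19 (endothelial cells), 21 and 19 (stromal progenitors) and 21 and 18 (osteoprogenitors) replication and mitosis genes were called against myeloma cells, and no other count changed. The osteoprogenitor fit thereby left out myeloma library E, and without E and with no block the counts were also 21 and 18. No paired analysis was possible because healthy and myeloma-bearing groups share no letter for those comparisons. Per library 8606 to 11280 of all 13260 genes were detected. In at least 1 of 28 niche libraries 41 of the 43 genes had 0 reads, against 0 of them in the 10 myeloma libraries. The part of depth in this was not tested (9735031 to 17972882 reads on genes in myeloma and 11991647 to 34883291 in niche libraries).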
